A study of Homo sapiens with 12 samples.

Results

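The mitochondrial ribosomal protein genes were followed in RNA-seq of a pair of human colorectal carcinoma lines. The 79 genes are the protein-coding entries whose symbol begins with MRPL or MRPS and a number, together with DAP3, out of 63036 identifiers in the table, 62625 of them with a symbol. The names place 49 of them in the large ribosomal subunit (MRPL) and 30 in the small one (MRPS and DAP3). 1 readthrough locus and 88 pseudogenes or other non-coding loci with such symbols were left out. The groups, each with 3 libraries, were HCT116 cells overexpressing RNF26, HCT116 control cells, HCT15 cells overexpressing RNF26 and HCT15 control cells, written below as HCT116 RNF26, HCT116 control, HCT15 RNF26 and HCT15 control. RNF26 is a ubiquitin ligase anchored in the endoplasmic reticulum, and the title of the series ties it to proliferation, metastasis and the Wnt pathway in colorectal cancer. Both lines have mutations of the Wnt pathway, in beta-catenin (HCT116) and in APC (HCT15). The labels used do not say what the control cells received or whether a group is 1 clone.

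Mitochondrial ribosomes translate the few proteins that the mitochondrial genome encodes, which are core subunits of the respiratory chain and of ATP synthase. Their RNAs come from the mitochondrial genome, but all of their proteins are encoded in the nucleus, made in the cytosol and imported. Some of the proteins have counterparts in bacterial ribosomes and others exist only in mitochondria. DAP3 is a GTP-binding protein of the small subunit that was first described in cell death. Names and places do not always match: the products of MRPS18A and MRPS30 sit in the large subunit, and MRPS36, also known as KGD4, is now regarded as a subunit of the alpha-ketoglutarate dehydrogenase complex.

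Values are TPM, relative transcript abundances that are scaled for transcript length and share a fixed total in each library, so a gene's value also depends on the other genes, sequencing depth is unknown, and neither counting intervals nor detection floors can be given. In bulk RNA, fewer cells that express a gene and less RNA per cell cannot be told apart. Between 13582 and 14135 genes reached 1 TPM in a library. RNF26 averaged 296 ± 39.4 TPM in HCT116 RNF26 libraries and 16.8 ± 1.44 TPM in HCT116 control libraries, and 54.2 ± 0.562 TPM in HCT15 RNF26 libraries and 27.0 ± 0.762 TPM in HCT15 control libraries (SD, n = 3 each). The libraries did not overlap in either line, and the exact two-sided permutation test gave p = 0.1 in each, the smallest that 3 against 3 allows. The labelled cell type was checked on epithelial markers. EPCAM was at 193 TPM or more and KRT8 at 1371 TPM or more in every library, while VIL1 averaged 0.407 TPM in HCT116 RNF26 and 0.457 TPM in HCT116 control libraries. CDX2 and CDH1 were also low there, at 4.06 and 8.0 TPM in HCT116 RNF26 and 5.85 and 6.97 TPM in HCT116 control libraries. KRT18 and KRT19 averaged 688 and 559 TPM in HCT116 RNF26 and 742 and 610 TPM in HCT116 control libraries. In HCT15 some epithelial markers moved with the comparison. VIL1, CDX2 and CDH1 averaged 25.8, 10.9 and 49.8 TPM in HCT15 RNF26 and 81.7, 29.2 and 73.2 TPM in HCT15 control libraries. KRT8 and KRT19 averaged 1559 and 479 TPM in HCT15 RNF26 and 2057 and 661 TPM in HCT15 control libraries. EPCAM and KRT18 differed little, at 551 and 1751 TPM in HCT15 RNF26 and 555 and 1821 TPM in HCT15 control libraries. The part of these markers in the HCT15 results was not tested. Of markers of other cells, PTPRC, CD3E, PECAM1, COL3A1 and ALB did not exceed 0.43 TPM, and COL1A1 was at 0.24 to 2.77 TPM, in any library. HCT15 control replicate 3 stood apart: the mitochondrial genome took 25.9% of its TPM (16.4 to 22.5% in the other 11 libraries) and cytosolic ribosomal proteins 17.8% (21.8 to 27.9%). The counts that lead each comparison using it, and those of most gene lists, are also given without it.

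All 79 genes passed the low-value filter (3 libraries or more at 1 TPM or above) and were tested among 15584 genes with limma on log2(TPM + 1), a scale that understates changes of low genes. A gene is called where its Benjamini-Hochberg adjusted p over all tested genes is under 0.05, and log2 fold changes are on that scale. The labels used do not say whether the replicates came from separate cultures, so p-values reflect only how far these libraries scatter, and that scatter may be technical. Each SE and p-value rests on a spread estimated over all 12 libraries, though the groups scattered unequally. The SD of a gene, as a percent of its mean, had a median over the 79 genes of 11.9% in HCT15 control and 6.31% in HCT15 RNF26 libraries. In HCT116 control and HCT116 RNF26 libraries it was 4.07% and 4.97%.

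The genes were widely and unevenly expressed. Their mean over the 12 libraries ran from 12.7 to 199 TPM with a median of 78.9 TPM, against a median of 8.57 TPM over all tested genes. MRPL3, a core protein of the large subunit, was the highest at 199 TPM, followed by MRPS24 (197 TPM), MRPL20 (189 TPM), MRPL12 (185 TPM) and MRPL51 (167 TPM). MRPL50 was the lowest at 12.7 TPM, with MRPS25 at 13.8 TPM and MRPS17 at 16.7 TPM. The order depended on the line: MRPL12, whose product forms the flexible stalk of the large subunit and also binds the mitochondrial RNA polymerase, was the highest of the 79 in all 6 HCT116 libraries. In the HCT15 libraries the highest gene was MRPS24 or MRPL3. Over all 79 genes the summed level was 7472 ± 155 TPM in HCT116 RNF26 and 7483 ± 94.5 TPM in HCT116 control libraries, and 5451 ± 54.6 TPM in HCT15 RNF26 and 5689 ± 519 TPM in HCT15 control libraries (SD, n = 3 each). Within HCT15 control the sums were 5862, 6099 and 5105 TPM, the last of them in replicate 3. Per gene, with subunits assigned by name, large-subunit genes averaged between 101 and 106 TPM and small-subunit genes between 78.6 and 81.5 TPM in the HCT116 libraries. In HCT15 these averages were 65.0 to 80.6 TPM and 64.0 to 71.7 TPM, so the large-subunit excess was smaller there, a difference that was not tested.

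**Figure D1:**
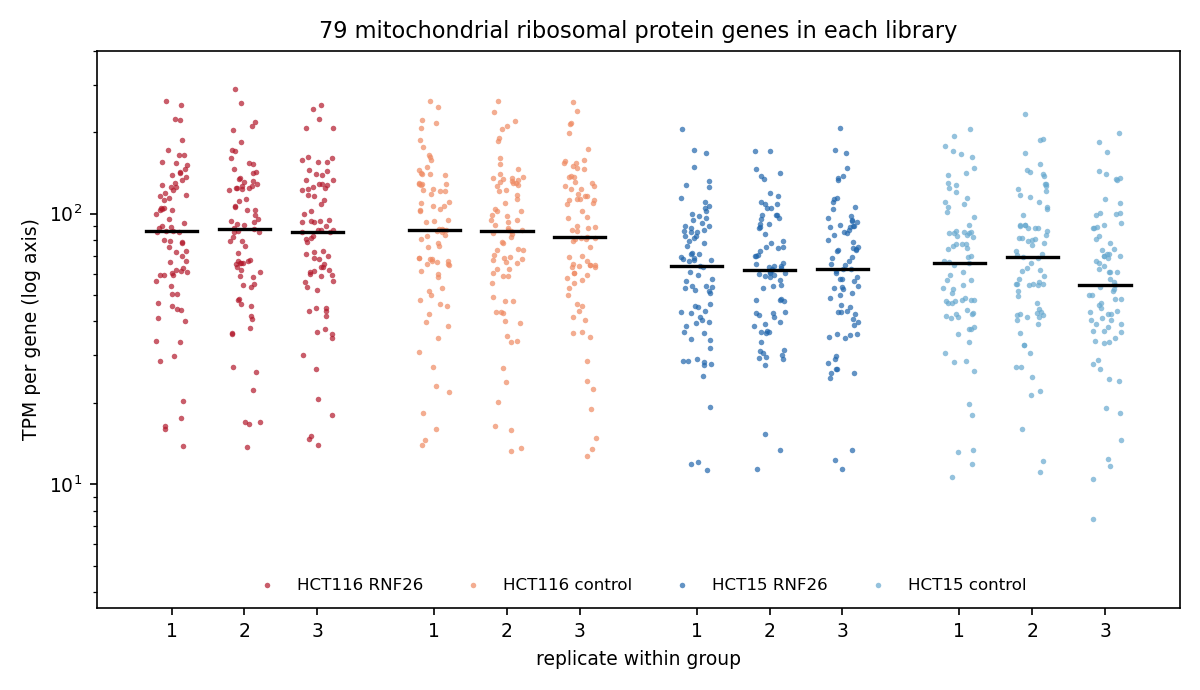
TPM (log axis) of each of the 79 mitochondrial ribosomal protein genes in the 12 libraries, by group and replicate. Each point is a gene and each black line the median over the genes, which lay between 82.1 and 87.8 TPM in the HCT116 libraries and between 54.6 and 69.3 TPM in the HCT15 libraries, lowest in HCT15 control replicate 3.

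Many of these genes lie close to others, which bears on how their reads can be assigned. Of the 79, 42 share annotated exon bases with another gene, 30 of them with a gene on the opposite strand and 16 with one on the same strand. Among the genes described below, MRPL49 overlaps FAU and SYVN1, MRPL43 overlaps SEMA4G and TWNK, MRPS2 overlaps C9orf116, MRPS27 overlaps PTCD2, MRPS12 overlaps SARS2 and MRPL37 overlaps CYB5RL and SSBP3 on the opposite strand. MRPL28 and TMEM8A, and MRPL33 and BABAM2, share bases on the same strand. The libraries were strand-specific by their kit, but the sources used here do not say whether quantification took the strand into account, which leaves the values of overlapping genes uncertain. The table also lists 83 pseudogenes of 37 of the genes. Only those of MRPS18A, MRPS31, MRPL35 and MRPL45 reached 1 TPM in any library, and the pseudogenes of MRPL45 reached 12.1 TPM.

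In HCT116 cells no mitochondrial ribosomal protein gene was called between RNF26 and control, and the largest differences were small. Of the 79 genes, 0 were called in either direction with limma, where 0.00642% of all tested genes were called, RNF26 alone. At an unadjusted p under 0.05, 2 of the 79 and 657 of all 15584 tested genes differed. The median log2 fold change of the 79 was 0.008, against 0.007 over all tested genes, and single genes lay between -0.24 and 0.20. MRPS18A, 1 of 3 human paralogs of the bacterial S18 protein, had 63.3, 66.7 and 63.3 TPM in HCT116 RNF26 libraries, against 75.9, 78.6 and 69.3 TPM in HCT116 control libraries. Its libraries did not overlap, the log2 fold change was -0.21 (SE 0.06, limma adjusted p = 1) and the unadjusted p was 0.00735. MRPL37, a protein found only in mitochondrial ribosomes, had 105, 114 and 102 TPM in HCT116 RNF26 libraries, against 122, 122 and 113 TPM in HCT116 control libraries, and its HCT116 RNF26 replicate 2 lay just above the lowest control library. Its log2 fold change was -0.15 (SE 0.07, limma adjusted p = 1). MRPL33, a small protein with a bacterial counterpart, had 151, 143 and 141 TPM in HCT116 RNF26 libraries, against 124, 128 and 129.6 TPM in HCT116 control libraries, without overlap, and a log2 fold change of 0.19 (SE 0.10, limma adjusted p = 1). The libraries did not overlap for 6 higher and 8 lower genes, against 7.25% and 5.56% of all tested genes (12.8% in all).

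In HCT15 cells the same genes split: 10 were higher and 20 lower in RNF26 cells than in control cells. MRPS36, MRPS33, MRPL33, MRPS21, MRPL48 and MRPL51 had the largest rises, with log2 fold changes of 0.41 to 0.89. MRPS2, MRPL49, MRPL28, MRPS34 and MRPL4 had the largest falls, of -0.58 to -0.90. Over all tested genes 5.39% were called higher and 31.2% lower, against 12.7% and 25.3% of the 79. In both directions together 38% of the 79 and 36.6% of all tested genes were called, so the number of calls was near the background. Their median log2 fold change was 0.03, while that of all tested genes was -0.17. By name, small-subunit genes had 4 rises and 7 falls among 30, and large-subunit genes 6 rises and 13 falls among 49. The small-subunit count includes the rise of MRPS36 and the falls of MRPS18A and MRPS30, whose products are placed elsewhere, as given above. No single change reached 1 on the log2 scale. With the HCT15 libraries fitted alone, 5 of the 79 were called higher and 13 lower, where 374 and 3528 of all 15584 tested genes were. The libraries did not overlap for 12 higher genes (7.23% of all tested genes) and 19 lower genes (35.9%).

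The direction split depended on how libraries were scaled. With libraries scaled by their median ratio over 7524 genes, the median of all tested genes was 0 in place of -0.17 and that of the 79 was 0.25. On that scale 33 of the 79 rose and 8 fell, against 14.4% and 16.7% of all tested genes. Quantile normalization gave 32 rises and 8 falls, where 2275 and 2521 of all 15584 tested genes rose and fell. Leaving out the mitochondrial genome and cytosolic ribosomal proteins gave 27 and 12, where 1427 and 3448 of 15484 genes rose and fell. Each of these 3 alternatives raised the log2 fold change of every one of the 79 genes, so that the 10 genes called higher on the deposited TPM stayed called is fixed by that shift. Of the 20 called lower, 8 stayed called under all 4 scalings. Across all 25 settings MRPL1 and MRPL42, not called on the deposited TPM and chosen after their values were seen, were called in both directions: MRPL1 higher in 3 and lower in 1, and MRPL42 higher in 2 and lower in 1. Without HCT15 control replicate 3, 6 genes rose and 20 fell (4.19% and 28.8% of all tested genes) and the median was -0.10, against -0.17 for all genes. Without HCT15 control replicate 2, 22 rose and 17 fell, where 1171 and 4707 of all 15584 tested genes did. Without HCT15 RNF26 replicate 2, 6 rose and 16 fell, where 561 and 4729 of all tested genes did. MRPL33, MRPL48, MRPS33 and MRPS36 rose, and MRPL28, MRPL37, MRPL4, MRPL43, MRPL49, MRPS2, MRPS27 and MRPS34 fell, in all 25 settings run.

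**Figure D2:**
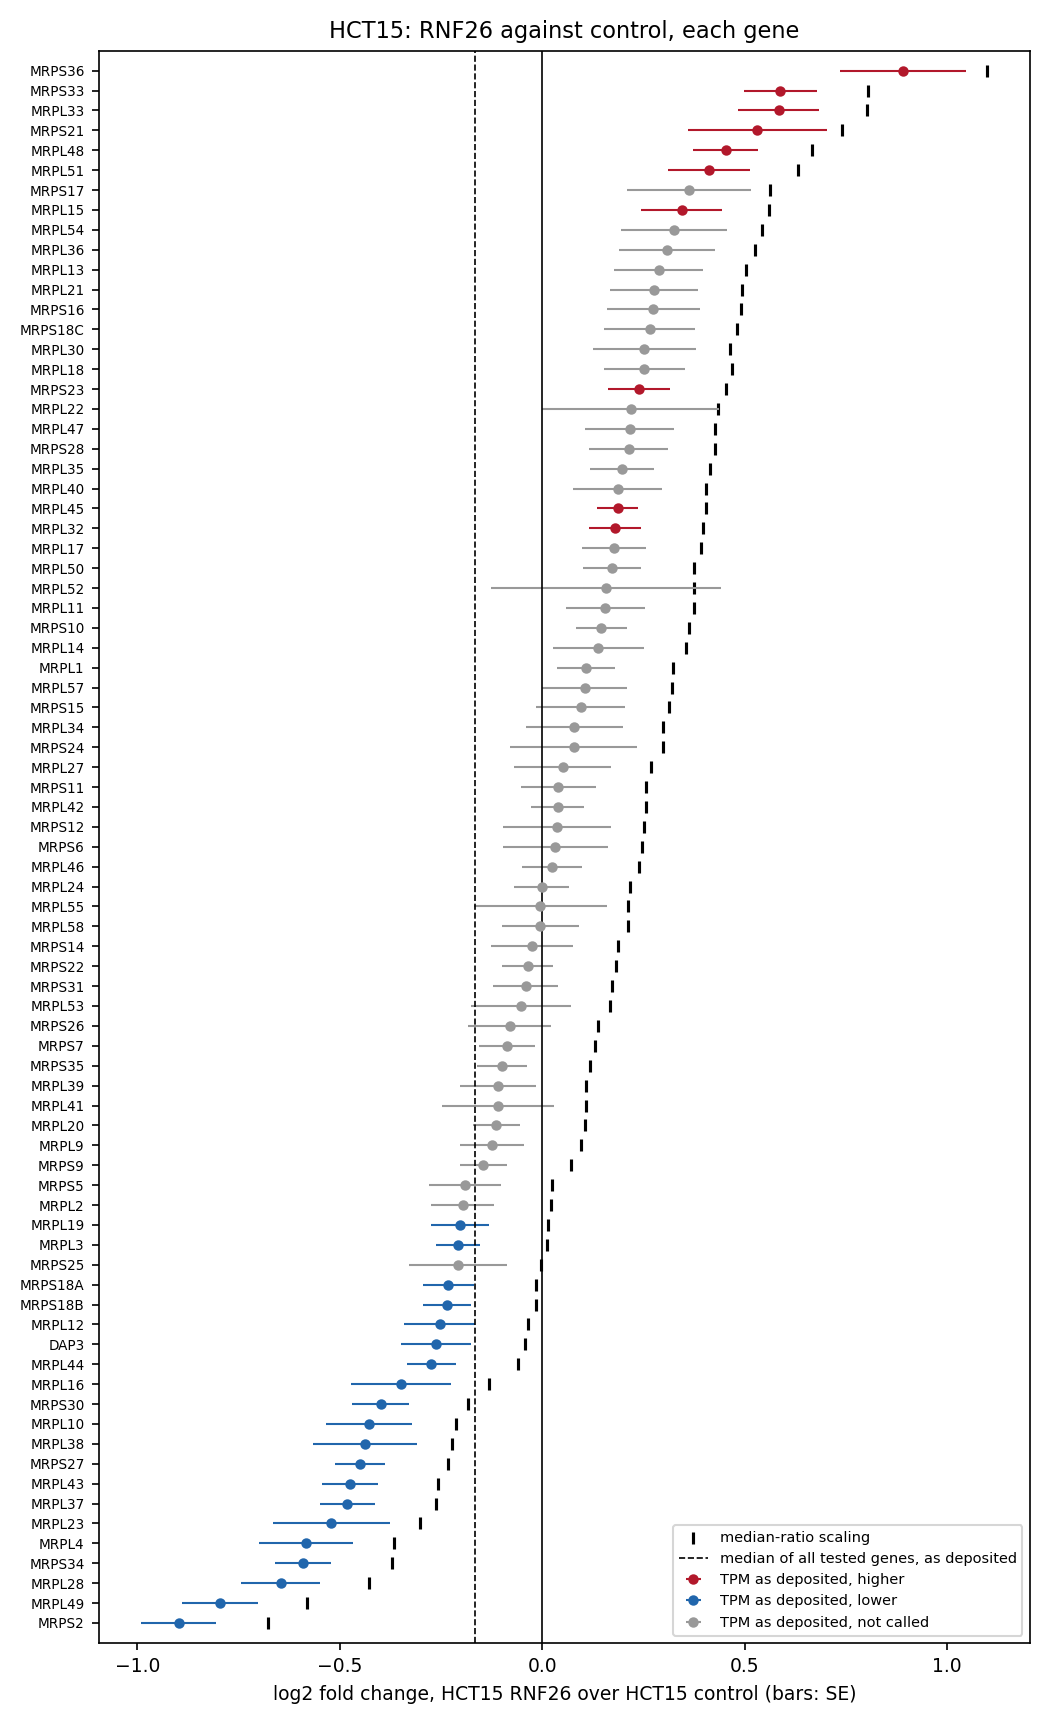
Log2 fold change of log2(TPM + 1), HCT15 RNF26 over HCT15 control, for each of the 79 genes. Points and bars are the deposited TPM with the SE, coloured by call. The SE is that of the limma fit, with the spread estimated over all 12 libraries (3 per group). Black ticks are the same genes under median-ratio scaling and the dashed line is the median of all tested genes (-0.17). The genes run from -0.90 (MRPS2) to 0.89 (MRPS36), and every tick lies to the right of its point.

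The gene that rose most, MRPS36, had 28.5, 30.6 and 28.1 TPM in HCT15 RNF26 libraries, against 13.1, 21.4 and 12.4 TPM in HCT15 control libraries. All 3 RNF26 libraries lay above all control libraries, and HCT15 control replicate 2 was well above its group's other libraries. The log2 fold change was 0.89 (SE 0.16, limma adjusted p = 0.00127). MRPS33, a small-subunit protein found only in mitochondria, had 98.0, 116.34 and 89.1 TPM in HCT15 RNF26 libraries, against 66.5, 69.3 and 64.0 TPM in HCT15 control libraries, with no overlap and RNF26 replicate 2 the highest. The rise was 0.59 (SE 0.09, limma adjusted p = 0.000575) on the log2 scale. MRPL33 had 90.3, 98.7 and 93.9 TPM in HCT15 RNF26 libraries, against 64.8, 72.7 and 51.8 TPM in HCT15 control libraries, and a log2 fold change of 0.58 (SE 0.10, limma adjusted p = 0.00112). The groups did not overlap, and control replicate 3 was the lowest library. MRPL48, a mitochondria-specific protein of the large subunit, had 34.6, 36.7 and 35.7 TPM in HCT15 RNF26 libraries, against 28.5, 24.9 and 24.1 TPM in HCT15 control libraries. Its groups did not overlap and its log2 fold change was 0.45 (SE 0.08, limma adjusted p = 0.00136).

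Other rises were smaller or less stable. MRPS21, a small-subunit protein with a bacterial counterpart, had 27.8, 31.3 and 25.9 TPM in HCT15 RNF26 libraries, against 18.0, 27.1 and 14.5 TPM in HCT15 control libraries, where control replicate 2 lay above RNF26 replicate 3, so that the groups overlapped. Its log2 fold change was 0.53 (SE 0.17, limma adjusted p = 0.032), and the adjusted p was 0.0938 without HCT15 control replicate 1, 0.105 without control replicate 3, 0.0710 without RNF26 replicate 1 and 0.0985 without RNF26 replicate 2 (limma). MRPL51 averaged 132 ± 5.41 TPM in HCT15 RNF26 libraries and 99.7 ± 16.8 TPM in HCT15 control libraries (SD, n = 3 each), a log2 fold change of 0.41 (SE 0.10, limma adjusted p = 0.0085), which was not called when HCT15 was fitted alone (limma adjusted p = 0.0751). MRPL15 averaged 66.9 ± 3.98 TPM in HCT15 RNF26 libraries and 52.7 ± 5.82 TPM in HCT15 control libraries (SD, n = 3 each), a log2 fold change of 0.34 (SE 0.10, limma adjusted p = 0.0193). Without HCT15 control replicate 3, RNF26 replicate 1 or RNF26 replicate 2 its limma adjusted p was 0.0624, 0.0643 or 0.0574. MRPL45, which anchors the ribosome to the inner membrane near the exit of the nascent chain, averaged 97.3 ± 3.28 TPM in HCT15 RNF26 libraries and 85.4 ± 2.98 TPM in HCT15 control libraries (SD, n = 3 each). Its log2 fold change was 0.19 (SE 0.05, limma adjusted p = 0.0157), and without HCT15 RNF26 replicate 1 the limma adjusted p was 0.0606. The pseudogenes of MRPL45 moved the same way, with a summed 9.57 TPM in HCT15 RNF26 and 5.13 TPM in HCT15 control libraries, and their part in its value was not tested. MRPS23, a mitochondria-specific small-subunit protein, had a log2 fold change of 0.24 (SE 0.08, limma adjusted p = 0.0303). MRPL32, which is processed by the mitochondrial AAA protease, had one of 0.18 (SE 0.06, limma adjusted p = 0.0456). Without 1 library the adjusted p reached 0.0959 for MRPS23 (lost without HCT15 control replicates 2 or 3 or RNF26 replicates 2 or 3) and 0.123 for MRPL32 (lost without any library other than HCT15 control replicates 1 and 2), in limma. MRPL32 was at -0.02 once values were corrected for GC content and length.

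**Figure D3:**
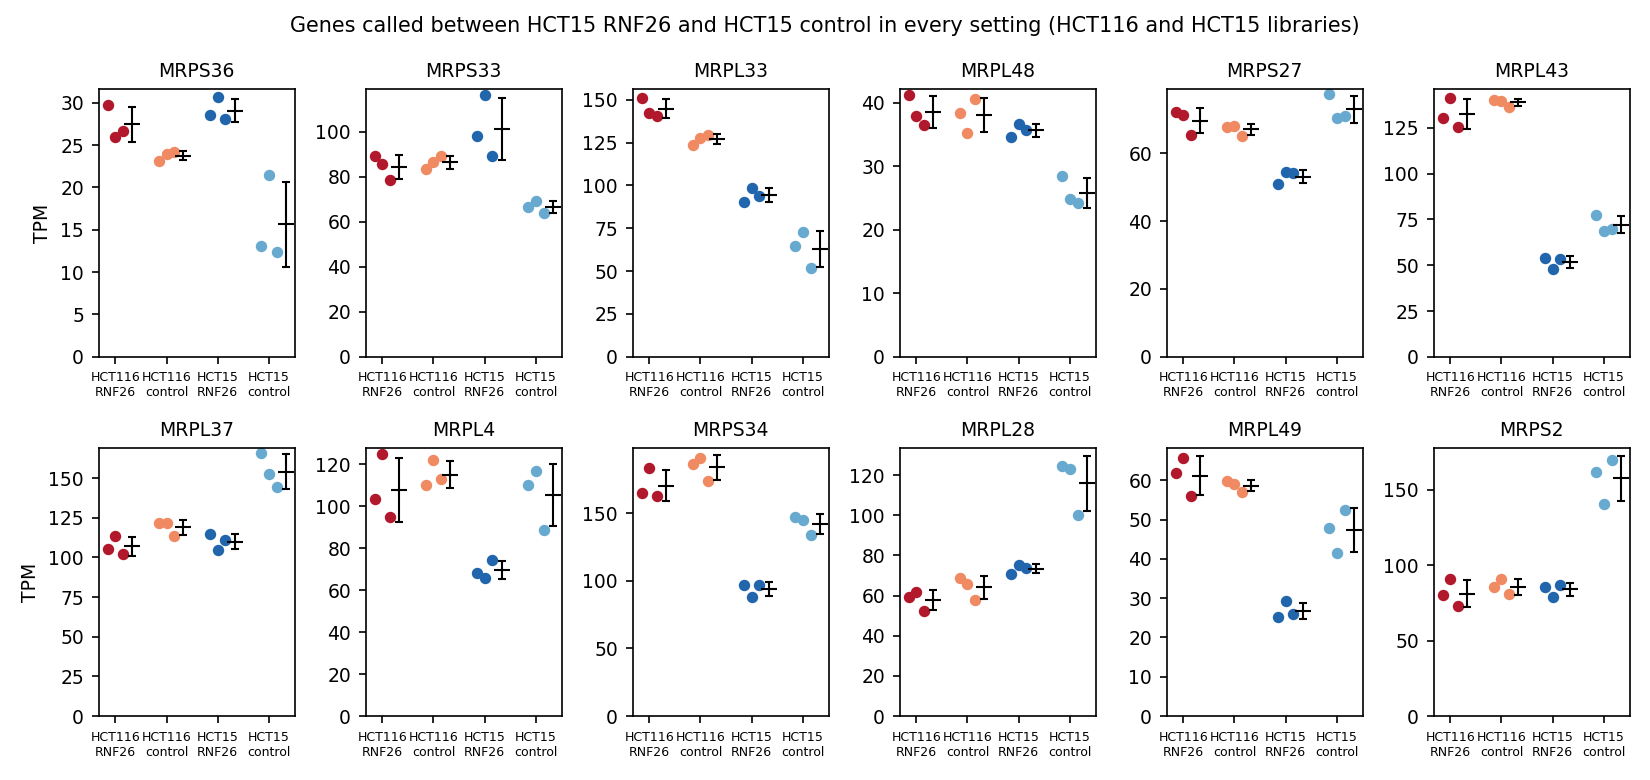
TPM of the 12 genes called between HCT15 RNF26 and HCT15 control in all 25 settings, 1 panel per gene with its own axis from 0. Points are libraries (3 per group) of HCT116 RNF26, HCT116 control, HCT15 RNF26 and HCT15 control, and the bars beside them the mean and SD; MRPS2 lies between 79.2 and 87.2 TPM in HCT15 RNF26 libraries and between 141 and 170 TPM in HCT15 control libraries.

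Among the falling genes, MRPS2, a small-subunit protein with a bacterial counterpart, had 85.5, 79.2 and 87.2 TPM in HCT15 RNF26 libraries, against 162, 141 and 169.8 TPM in HCT15 control libraries. The groups were far apart, and the RNF26 libraries lay within the range of the HCT116 libraries (73.1 to 90.8 TPM). The difference on the log2 scale was -0.90 (SE 0.09, limma adjusted p = 7.18e-05). MRPL49, a mitochondria-specific protein of the large subunit, had 25.2, 29.2 and 25.9 TPM in HCT15 RNF26 libraries, against 48.0, 41.4 and 52.5 TPM in HCT15 control libraries, again without overlap. It changed by -0.80 (SE 0.09, limma adjusted p = 0.000136) on the log2 scale. MRPL28 had 70.9, 75.4 and 73.8 TPM in HCT15 RNF26 libraries, against 124, 123 and 100.04 TPM in HCT15 control libraries, where control replicate 3 was the lowest of its group but above every RNF26 library. Its log2 fold change was -0.65 (SE 0.10, limma adjusted p = 0.000553).

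MRPS34, a mitochondria-specific small-subunit protein in which mutations cause Leigh syndrome, had 96.7, 88.3 and 96.7 TPM in HCT15 RNF26 libraries, against 147, 145 and 134 TPM in HCT15 control libraries. The groups did not overlap and the log2 fold change was -0.59 (SE 0.07, limma adjusted p = 0.000137). MRPL4, whose bacterial counterpart lines the tunnel for the nascent chain, had 68.2, 65.8 and 74.3 TPM in HCT15 RNF26 libraries, against 110.1, 117 and 88.5 TPM in HCT15 control libraries, without overlap, and a log2 fold change of -0.58 (SE 0.12, limma adjusted p = 0.00273). The mitochondria-specific genes MRPL37 and MRPL43 fell by 0.48 and 0.47 on the log2 scale (limma adjusted p = 0.000387 and 0.000463). MRPL37 averaged 110.0 ± 4.97 TPM in HCT15 RNF26 libraries and 154 ± 10.8 TPM in HCT15 control libraries (SD, n = 3 each) and MRPL43 averaged 51.6 ± 3.31 TPM in HCT15 RNF26 libraries and 72.2 ± 4.74 TPM in HCT15 control libraries (SD, n = 3 each). MRPS27, an RNA-binding protein with pentatricopeptide repeats, averaged 53.2 ± 1.83 TPM in HCT15 RNF26 libraries and 73.0 ± 3.99 TPM in HCT15 control libraries (SD, n = 3 each) and had a log2 fold change of -0.45 (SE 0.06, limma adjusted p = 0.000313); it was called in every setting. MRPL23, next to the exit of the nascent chain, had 71.5, 73.1 and 94.8 TPM in HCT15 RNF26 libraries, against 130.1, 129 and 88.3 TPM in HCT15 control libraries. RNF26 replicate 3 lay above control replicate 3, so the groups overlapped, and the log2 fold change was -0.52 (SE 0.14, limma adjusted p = 0.0155). It was not called under median-ratio scaling (-0.30, limma adjusted p = 0.136), nor without HCT15 control replicate 1 or RNF26 replicates 1 or 2 (0.0635, 0.0640 and 0.0533).

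Promoters were examined in the window from 250 bases before to 50 bases after the start that RefSeq gives (GRCh38.p14), which was found for 70 of the 79 genes. Short motifs, 5 in number, were searched on both strands, and matches may overlap each other. The ETS core CCGGAAG, bound by the GABPA factor among others, was in 41.4% of the 70 windows and in 14.2% of 15842 windows of protein-coding genes. The YY1 core AAGATGG was in 32.9% and 6.4%, and upstream of the start in 10% and 3.3%; its letters hold a start codon in one orientation. The NRF1 core GCATGCG was in 10% and 5.1%, the E-box CACGTG in 8.6% and 8.9%, and the GC box GGGCGG in 61.4% and 58.5%. Of the genes called higher in HCT15 under all 4 scalings, 6 of 8 with a window held the ETS core, and of those called lower 3 of 8; the GC box was in 4 of 8 and 7 of 8. These counts are a description. A protein-coding gene started in the opposite direction within 1000 bases upstream or 500 bases into the gene for 25 of the 79 genes (31.6%), and for 11.2% of all protein-coding genes. MRPS11 and MRPL46 start 34 bases from each other, and MRPL47 and MRPL36 lie head to head with the respiratory chain genes NDUFB5 and NDUFS6.

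The exon-free stretches of some of these windows are shown for genes that rose (MRPS33, MRPL33) or fell (MRPL28, MRPL4, MRPS34) in HCT15 RNF26 cells in all 25 settings, and for MRPL47, lower in HCT15 control cells. They are given 5′ to 3′ on the gene's strand in lower case, with matches to the 5 motifs in capitals, on GRCh38.p14.
MRPS33 chr7:141014984-141015094 (minus strand): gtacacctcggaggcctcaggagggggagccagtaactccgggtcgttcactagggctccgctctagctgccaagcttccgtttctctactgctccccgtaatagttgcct
MRPL33 chr2:27771469-27771716 (plus strand): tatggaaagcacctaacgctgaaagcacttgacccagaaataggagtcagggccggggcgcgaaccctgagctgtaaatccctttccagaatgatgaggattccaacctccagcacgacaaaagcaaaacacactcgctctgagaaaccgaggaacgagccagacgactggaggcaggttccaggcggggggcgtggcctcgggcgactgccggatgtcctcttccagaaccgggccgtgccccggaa
MRPL28 chr16:370539-370772 (minus strand): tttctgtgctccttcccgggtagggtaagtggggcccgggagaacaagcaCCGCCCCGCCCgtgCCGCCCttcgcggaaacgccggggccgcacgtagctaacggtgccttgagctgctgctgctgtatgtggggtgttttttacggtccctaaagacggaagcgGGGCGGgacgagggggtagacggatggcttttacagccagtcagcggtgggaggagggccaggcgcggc
MRPL4 chr19:10251701-10251900 (plus strand): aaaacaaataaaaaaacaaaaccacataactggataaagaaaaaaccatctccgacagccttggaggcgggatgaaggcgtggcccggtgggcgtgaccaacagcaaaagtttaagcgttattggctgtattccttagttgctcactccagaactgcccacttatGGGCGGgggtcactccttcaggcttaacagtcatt
MRPS34 chr16:1773156-1773206 (minus strand): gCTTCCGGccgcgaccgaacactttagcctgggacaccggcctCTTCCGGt
MRPL47 chr3:179604655-179604689 (minus strand): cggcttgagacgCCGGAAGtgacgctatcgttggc
The stretches of MRPS33 and MRPL33 hold no match. Not shown are those of MRPL37 (93 bases, no match) and MRPS2 (51 bases, 1 GC box), which also fell in all 25 settings. MRPL28 holds 4 GC boxes, 2 of which share bases, MRPL4 holds 1, MRPS34 holds 2 ETS cores on the reverse strand within 51 bases, and MRPL47 holds 1 ETS core. A match is no evidence of binding, and the absence of one says only that these letters are missing from the stretch.

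Of the 3 paralogs of S18, MRPS18A and MRPS18B fell in HCT15 RNF26 cells and MRPS18C was not called. MRPS18A averaged 62.7 ± 1.45 TPM in HCT15 RNF26 libraries and 73.9 ± 3.95 TPM in HCT15 control libraries (SD, n = 3 each) with a log2 fold change of -0.23 (SE 0.06, limma adjusted p = 0.0143), and MRPS18B averaged 78.9 ± 4.29 TPM in HCT15 RNF26 libraries and 93.0 ± 4.45 TPM in HCT15 control libraries (SD, n = 3 each) with -0.23 (SE 0.06, limma adjusted p = 0.00947). MRPS18C averaged 59.9 ± 6.04 TPM in HCT15 RNF26 libraries and 49.8 ± 6.63 TPM in HCT15 control libraries (SD, n = 3 each) with 0.27 (SE 0.11, limma adjusted p = 0.0883). Under median-ratio scaling the log2 fold changes were -0.01, -0.02 and 0.48, and MRPS18C alone of the 3 was called (limma adjusted p = 0.00829). DAP3 had 132, 141 and 138 TPM in HCT15 RNF26 libraries, against 170.3, 142 and 184 TPM in HCT15 control libraries and a log2 fold change of -0.26 (SE 0.09, limma adjusted p = 0.0337). HCT15 control replicate 2 lay just above the highest RNF26 library, and the call was lost without HCT15 control replicates 1 or 3 or RNF26 replicates 1 or 3 (limma adjusted p between 0.0731 and 0.106) and under median-ratio scaling (-0.04, 0.780). The genes with a second role gave no common picture. MRPL12 had a log2 fold change of -0.25 (SE 0.09, limma adjusted p = 0.0427), which was -0.04 under median-ratio scaling (limma adjusted p = 0.802) and was lost on leaving out any 1 library other than HCT116 RNF26 replicates 2 or 3, HCT15 RNF26 replicate 3 or HCT15 control replicate 3 (limma adjusted p up to 0.126). MRPL41, also linked to growth control, was at -0.11 (SE 0.14, limma adjusted p = 0.588) and MRPL58, a peptidyl-tRNA hydrolase that rescues stalled ribosomes, at -0.01 (SE 0.10, limma adjusted p = 0.99).

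Base composition of the transcripts moved with these values. Genes called higher in HCT15 RNF26 had a median GC content of 46.3%, those called lower 55.7% and those not called 50.6%, while the median length was 861, 861 and 864 bases. Over the 79 genes the log2 fold change in HCT15 had a Pearson correlation of -0.43 with GC content (Spearman -0.40) and of -0.01 with log2 length. Over the 14849 tested genes with both values the Pearson correlation with GC content was -0.37. Leaving out HCT15 control replicate 3 gave -0.52 over the 79 genes and -0.39 over all. In HCT116, where no gene was called, it was -0.55 over the 79 genes and -0.10 over all. These are correlations across genes that share libraries, and genes are not independent replicates. With values corrected for GC content and length, 10 of the 79 were called higher and 22 lower in HCT15. Of all 14849 genes in that fit, 632 were called higher and 4953 lower. The part of base composition in the result was not tested beyond that correction.

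**Figure D4:**
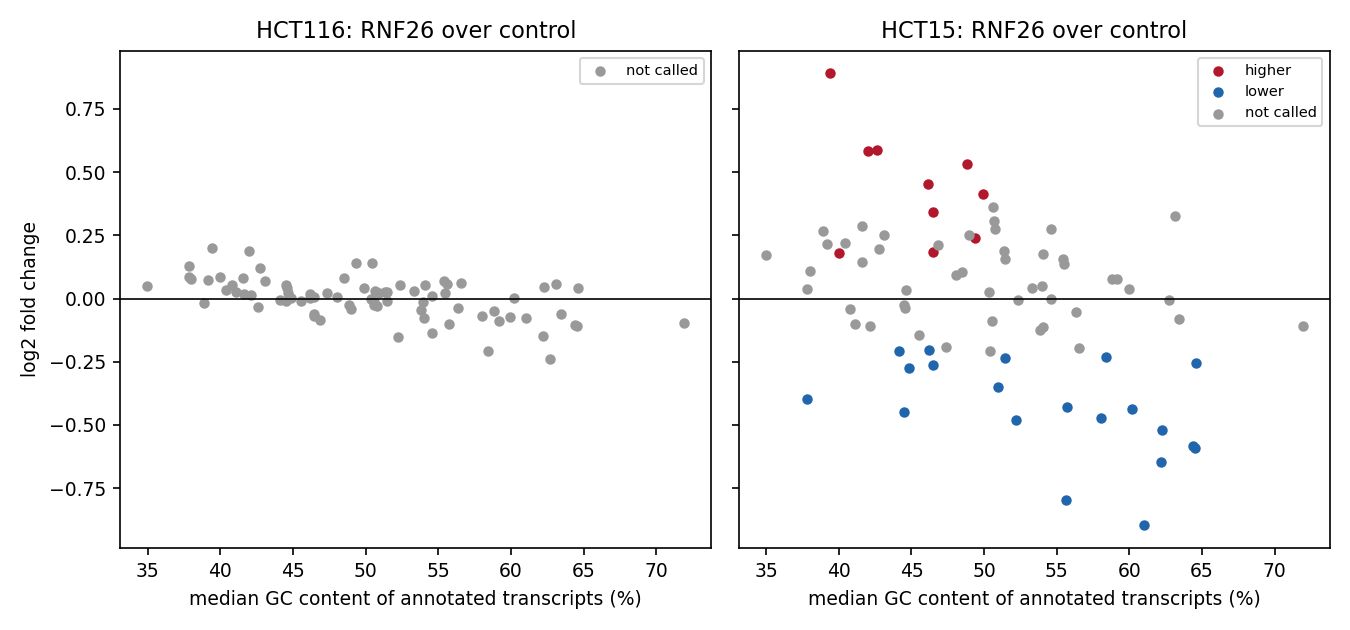
Log2 fold change (RNF26 over control) of the 79 genes in HCT116 (left) and HCT15 (right) against the median GC content of their annotated transcripts in percent. Each point is a gene, coloured by its limma call; the correlation across genes was -0.55 in HCT116 and -0.43 in HCT15.

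The log2 fold change between RNF26 and control cells differed between the lines for some of these genes. What the control cells received and whether a group is a single clone are not given. An effect of RNF26 therefore cannot be told apart from other differences between the groups. The test of the difference itself (HCT15 minus HCT116) called 4 genes higher and 10 lower, where 1.8% and 18.7% of all tested genes were called (20.5% in all). All 14 were also called in HCT15 alone, and in the same direction; the 2 comparisons share the HCT15 libraries. Under median-ratio scaling 15 were higher and 3 lower (5.99% and 7.35% of all tested genes). Leaving out HCT15 control replicate 2 gave 14 higher genes, and 636 of all 15584 tested genes were then called higher, against 281 with every library. Without HCT116 control replicates 1 or 3 or HCT116 RNF26 replicate 2 there was 1, and without HCT116 control replicate 2, HCT116 RNF26 replicate 1 or HCT15 RNF26 replicates 1 or 2 there were 2. All tested genes called higher numbered 132 to 190 in these fits. The lower genes numbered 6 without HCT116 control replicate 3, HCT116 RNF26 replicates 1 or 2 or HCT15 control replicate 1, and 15 without HCT15 control replicate 3, which left 4 higher genes. Over all tested genes the lower ones numbered 1952, 1957, 1809, 2117 and 2701 in these fits, in that order, against 2909 with every library. MRPS33 was higher, and MRPL49, MRPS2 and MRPS27 lower, in all 24 settings run. For MRPS2 the log2 fold change was -0.90 in HCT15 and -0.08 in HCT116, a difference of -0.82 (SE 0.13, limma adjusted p = 0.00289). For MRPL49 it was -0.80 in HCT15 and 0.06 in HCT116, a difference of -0.85 (SE 0.13, limma adjusted p = 0.00254). The groups of HCT116 libraries overlapped for both genes. MRPS27 differed by -0.50 (SE 0.09, limma adjusted p = 0.00405) and MRPS33 by 0.62 (SE 0.13, limma adjusted p = 0.00777).

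The other differences were 0.69 (SE 0.22, limma adjusted p = 0.0475) for MRPS36, 0.43 (SE 0.11, limma adjusted p = 0.022) for MRPL48 and 0.25 (SE 0.07, limma adjusted p = 0.0346) for MRPL45 among the higher genes. MRPS30 differed by -0.53 (SE 0.10, limma adjusted p = 0.00558), MRPS34 by -0.48 (SE 0.10, limma adjusted p = 0.00777) and MRPL43 by -0.41 (SE 0.10, limma adjusted p = 0.0167), and these 3 calls were lost under median-ratio scaling but not on leaving out any library. MRPL28 differed by -0.50 (SE 0.14, limma adjusted p = 0.0277) and MRPL37 by -0.33 (SE 0.10, limma adjusted p = 0.0346). The call for MRPS36 was lost without any library other than HCT15 control replicate 2 (limma adjusted p up to 0.106), and that for MRPL45 without any library other than HCT116 RNF26 replicate 3, HCT15 RNF26 replicate 3 and HCT15 control replicates 2 and 3 (up to 0.0855). MRPL48 lost its call without HCT116 control replicate 1 or 3 or HCT116 RNF26 replicate 2 (up to 0.0590), and MRPL28 without HCT116 RNF26 replicates 1 or 2, HCT116 control replicate 3, HCT15 RNF26 replicates 1 or 3 or HCT15 control replicate 1 (limma adjusted p up to 0.0716). The call for MRPL37 held only without HCT116 RNF26 replicate 3, HCT15 RNF26 replicate 1 or HCT15 control replicates 2 or 3, and reached a limma adjusted p of 0.0865 otherwise. Both MRPL28 and MRPL37 were also lost under median-ratio scaling. MRPL44, an RNase III-related protein of the large subunit, and MRPS18B completed the 10 lower genes at -0.28 and -0.26, and their calls held only without HCT15 RNF26 replicate 2 or HCT15 control replicate 3 for MRPL44, and without HCT15 RNF26 replicate 3 or HCT15 control replicate 2 for MRPS18B.

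Between the control cells of the lines, the genes were called about as often as other genes, but mostly lower in HCT15. In HCT15 control against HCT116 control cells, 10 of the 79 genes were higher and 44 lower, while 43.6% of all tested genes were higher and 26% lower (69.5% in all, against 68.4% of the 79). The median log2 fold change was -0.33, against 0.22 over all tested genes. By name, large-subunit genes had 5 higher and 31 lower of 49, small-subunit genes 5 and 13 of 30, with MRPS30 and MRPS36 among the small-subunit lower ones. Of the 44 lower genes all were also lower under the other 3 scalings, and 42 were lower in all 25 settings. Median-ratio scaling and leaving out the mitochondrial genome and cytosolic ribosomal proteins lowered the log2 fold change of every one of the 79 genes. That the 44 stayed lower under these is therefore fixed by that shift, while quantile normalization moved genes both ways. Of the 10 higher genes 6 (MRPL28, MRPL37, MRPS14, MRPS2, MRPS35 and MRPS5) were higher in all 25. Median-ratio scaling gave 6 higher and 56 lower genes, against 37.1% and 32% of all tested genes (69% in all). Without HCT15 control replicate 3, 12 were higher and 44 lower (42.9% and 24.9% of all tested genes), with a median of -0.24 against 0.22. The libraries did not overlap for 10 higher genes (44.8% of all tested genes) and 46 lower ones (27.1%), and for 71.9% of all tested genes in either direction.

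The lowest genes of HCT15 relative to HCT116 were spread over both subunits, and 13 of them were lower by 1 or more on the log2 scale. MRPS21 had 18.0, 27.1 and 14.5 TPM in HCT15 control libraries, against 103, 87.4 and 103 TPM in HCT116 control libraries. Every HCT15 library was far below every HCT116 library, a log2 fold change of -2.28 (SE 0.17, limma adjusted p = 3.46e-07). MRPL47, of the large subunit near the tunnel exit, had 26.3, 27.2 and 19.1 TPM in HCT15 control libraries, against 80.5, 73.6 and 75.2 TPM in HCT116 control libraries, and a log2 fold change of -1.63 (SE 0.11, limma adjusted p = 1.39e-07). MRPS23 had 53.3, 43.1 and 48.2 TPM in HCT15 control libraries, against 149, 147 and 154 TPM in HCT116 control libraries, a log2 fold change of -1.62 (SE 0.08, limma adjusted p = 6.7e-09). MRPL18, whose bacterial counterpart binds the smallest RNA of the large subunit, averaged 48.1 ± 7.28 TPM in HCT15 control libraries and 137 ± 4.16 TPM in HCT116 control libraries (SD, n = 3 each), at -1.50 (SE 0.10, limma adjusted p = 1.26e-07). MRPS12, of the decoding centre, averaged 44.1 ± 10.3 TPM in HCT15 control libraries and 108 ± 3.28 TPM in HCT116 control libraries (SD, n = 3 each), at -1.29 (SE 0.13, limma adjusted p = 4.91e-06). The groups did not overlap for any of these. MRPL13, MRPL27 (whose bacterial counterpart lies near the peptidyl transferase centre) and MRPL12 were at -1.22, -1.18 and -1.16, with limma adjusted p-values of 1.48e-06, 4.38e-06 and 3.65e-07.

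**Figure D5:**
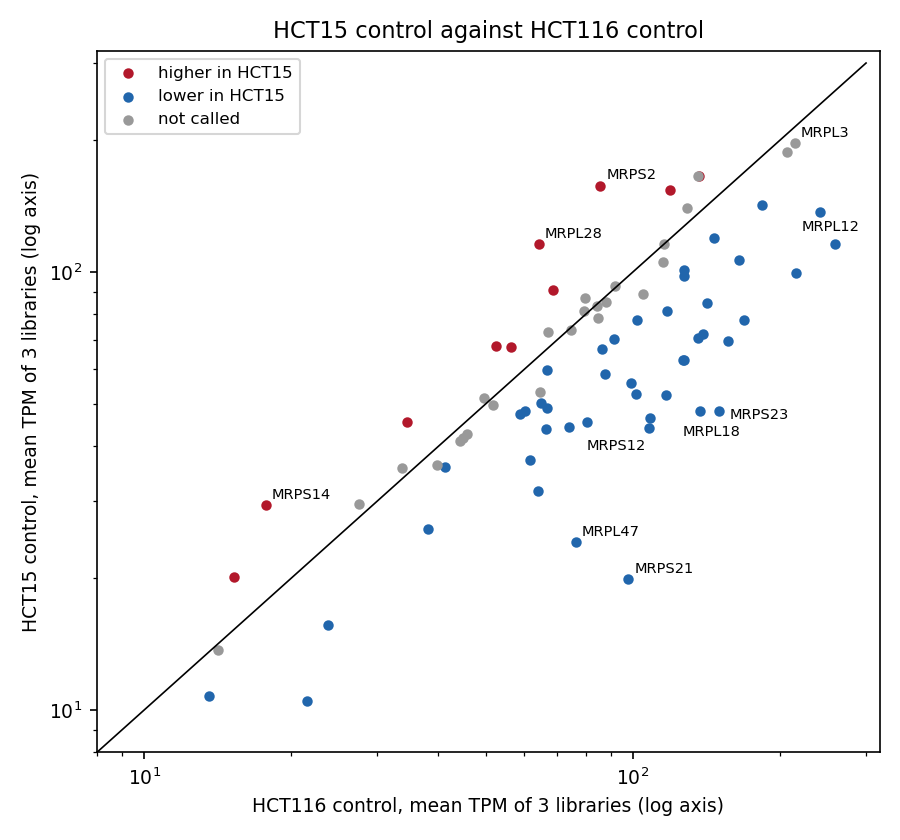
Mean TPM of the 79 genes (3 libraries per group, both axes log) in HCT15 control cells (vertical) against HCT116 control cells (horizontal), coloured by the limma call. The black line marks equal levels; most genes lie under it, MRPS21 farthest (19.9 against 97.9 TPM).

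Higher in HCT15 control cells were MRPS2, MRPL28 and MRPS14 in the first place. MRPS2 had 162, 141 and 169.8 TPM in HCT15 control libraries, against 85.5, 90.8 and 80.7 TPM in HCT116 control libraries, and a log2 fold change of 0.87 (SE 0.09, limma adjusted p = 6.32e-06). MRPL28 had 124, 123 and 100.04 TPM in HCT15 control libraries, against 68.7, 65.9 and 57.9 TPM in HCT116 control libraries, at 0.84 (SE 0.10, limma adjusted p = 1.33e-05). Both were thus higher in HCT15 control than in HCT116 control cells and lower in HCT15 RNF26 than in HCT15 control cells; the comparisons share the HCT15 control libraries. MRPS14, a small-subunit protein with a bacterial counterpart, averaged 29.3 ± 4.31 TPM in HCT15 control libraries and 17.7 ± 1.68 TPM in HCT116 control libraries (SD, n = 3 each), at 0.69 (SE 0.10, limma adjusted p = 9.2e-05), and was at -0.02 between HCT15 RNF26 and HCT15 control. MRPS35 (0.40), MRPS5 (0.38) and MRPL37 (0.37) followed. MRPL30 (0.37) and MRPL54 (0.34) were not called under median-ratio scaling, nor without HCT15 control replicate 2 (limma adjusted p = 0.0749 and 0.130). MRPL30 was also not called without HCT116 control replicates 1 or 3 (0.0657 and 0.0613), and MRPL54 without HCT116 control replicates 2 or 3 or HCT15 control replicate 1 (0.105, 0.0969 and 0.0652, limma). DAP3 had a log2 fold change of 0.26 (SE 0.09, limma adjusted p = 0.0169), lost under median-ratio scaling (0.08, limma adjusted p = 0.448) and without HCT15 control replicates 1 or 3 (0.0548 and 0.0587).

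By chromosome, 7 of the 8 genes on chromosome 17 were lower in HCT15 control cells, with a median of -0.64, while all tested genes of chromosome 17 had a median of 0.14 and 29.4% of them were lower. All 3 on chromosome 8 were lower (median -1.01, against -0.01 for the chromosome, where 35.7% were lower). Of all 79 genes, on any chromosome, 55.7% were lower. On chromosome 11, 5 of 7 were lower (median -0.54, 29.8% of its tested genes lower) and on chromosome 7, 3 of 4 (-0.45, 23.4%). On chromosome 6, 2 of 6 were lower (-0.11, 23.1%). On chromosome 1, which holds 9 of the genes, 3 were higher and 4 lower (24.1% of its tested genes were lower), and on chromosome 2, with 8, 3 and 3 (25.2%). The share of higher genes was taken only over all chromosomes, where 43.6% of tested genes were higher. The lower genes numbered 7, 3, 4 and 3 on chromosomes 17, 8, 1 and 2 without HCT15 control replicate 3. Copy number of the lines was not measured here, and its part was not tested.

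The other genes that serve mitochondrial translation were examined in the same HCT15 comparison. Of 20 genes for aminoacyl-tRNA synthesis in mitochondria, 15 fell and 0 rose, with a median log2 fold change of -0.50. Here and for the lists that follow, the same comparison called 5.39% of all tested genes higher and 31.2% lower (median -0.17), and 4.19% and 28.8% without HCT15 control replicate 3. CARS2, the cysteinyl-tRNA synthetase, averaged 25.8 ± 2.63 TPM in HCT15 RNF26 libraries and 40.5 ± 1.25 TPM in HCT15 control libraries (SD, n = 3 each), a log2 fold change of -0.64 (SE 0.08, limma adjusted p = 0.000141). GATB, a subunit of the glutamyl-tRNA amidotransferase, was at -0.49 (SE 0.07, limma adjusted p = 0.000286), and EARS2 and TARS2, the glutamyl- and threonyl-tRNA synthetases, were at -0.88 and -0.74 (limma adjusted p = 0.00045 and 0.000471). Under median-ratio scaling 1 rose and 11 fell, against 14.4% and 16.7% of all tested genes. The 28 ribosome assembly genes had 1 rise and 14 falls (4 and 9 under median-ratio scaling). Without HCT15 control replicate 3 the 20 genes had 0 rises and 15 falls and the 28 genes 1 and 13. Among them METTL17 averaged 42.3 ± 1.49 TPM in HCT15 RNF26 libraries and 70.2 ± 4.70 TPM in HCT15 control libraries (SD, n = 3 each), a log2 fold change of -0.72 (SE 0.07, limma adjusted p = 4.74e-05). The GTPase MTG2, the assembly factor RCC1L and the helicase DHX30 were at -0.95, -1.04 and -0.77 (limma adjusted p = 0.000147, 0.000174 and 0.000388).

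Of 18 tested translation factors, 7 fell and 0 rose (3 and 5 under median-ratio scaling, 9 and 1 without HCT15 control replicate 3). Their median log2 fold change was -0.17, as for all tested genes. Without HCT15 control replicate 3, 50% of them fell and 5.56% rose, against 28.8% and 4.19% of all tested genes. The smallest p belonged to TUFM, the elongation factor that brings aminoacyl-tRNA to the ribosome. TUFM had 103, 104 and 99.6 TPM in HCT15 RNF26 libraries, against 194, 192 and 177 TPM in HCT15 control libraries, with no overlap and a log2 fold change of -0.87 (SE 0.08, limma adjusted p = 3.83e-05). Among the 4 mitochondrial ribosomal proteins with other symbols, CHCHD1 rose by 0.42 and PTCD3 and GADD45GIP1 fell by 0.43 and 0.31 on the log2 scale (limma adjusted p = 0.0404, 0.0131 and 0.012). Under median-ratio scaling 1 of the 4 was called higher and 0 lower, so both falls lost their call, and without HCT15 control replicate 3 there were 0 higher and 3 lower. Of 5 genes of mitochondrial transcription only POLRMT, the RNA polymerase, was called, at -0.62 (SE 0.14, limma adjusted p = 0.00498). Among 8 tested regulators of nuclear genes for mitochondria, 5 fell: MYC averaged 64.2 ± 2.43 TPM in HCT15 RNF26 libraries and 130.0 ± 15.2 TPM in HCT15 control libraries (SD, n = 3 each) (limma adjusted p = 4.33e-05), YY1 was at -0.90 (SE 0.10, limma adjusted p = 0.000125), GABPB1 at -0.53 (SE 0.08, limma adjusted p = 0.000575), PPRC1 at -0.68 (SE 0.12, limma adjusted p = 0.0012) and NRF1 at -0.44 (SE 0.09, limma adjusted p = 0.00406). The regulators had 4 falls and 1 rise under median-ratio scaling, and 5 and 0 when HCT15 control replicate 3 was left out. Cytosolic ribosomal proteins had 51 rises and 1 fall among 85 (median 0.38), with 71 and 0 under median-ratio scaling and 41 and 2 (median 0.25) without HCT15 control replicate 3, the library in which their share was lowest. Nuclear subunits of the respiratory chain and ATP synthase had 25 rises and 10 falls among 79 (median 0.18), with 43 and 6 under median-ratio scaling and 17 and 13 (median 0.04) without that library. The 13 genes of the mitochondrial genome had 2 rises and 0 falls, and 6 and 0 without it. Between control cells of the lines, 14 of the 79 respiratory chain genes were higher and 46 lower in HCT15 (median -0.37), where 43.6% and 26% of all tested genes were called. Median-ratio scaling gave 10 and 53, and leaving out HCT15 control replicate 3 gave 19 and 42. For the cytosolic ribosomal proteins these counts were 12 and 26, 2 and 42 under median-ratio scaling, and 30 and 15 without that library, so their direction depended on it.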

How the data were processed

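Messenger RNA of 12 libraries (HCT116 and HCT15 cells, RNF26-overexpressing and control, 3 replicates each) was analysed, and titles gave the groups and replicate numbers. In the 1 table that the authors deposited, values are TPM with 2 decimals, which sum to between 999999 and 1000001 in a library. Per the labels' protocols, TRIzol RNA was enriched for poly(A) and made into stranded libraries for paired-end sequencing. The tools, per the submitters' processing notes, were fastp, HISAT2, StringTie and RSEM on genome build GRCh38. The sources used here give no versions, annotation release or strand setting. Any 2 libraries differed in 24770 or more identifiers, so none was counted as a copy.

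Names, positions, GC content and length (medians over annotated transcripts) came from GENCODE for GRCh38, and promoter windows from RefSeq GRCh38.p14. A single limma 3.58.1 fit in R 4.3.3 held all 4 groups and the 15584 genes at 1 TPM or above in 3 or more libraries, on log2(TPM + 1), with a trended empirical Bayes prior (3.09 degrees of freedom, beside 8 residual ones). P-values are two-sided with Benjamini-Hochberg adjustment over all tested genes and a threshold of 0.05. No count model was used because TPM are not counts. The procedure was tried on simulated data with 200 changed genes and, for each gene, the same spread in all 4 groups. Unequal scatter between groups, as in these data, was therefore not covered by that trial. Lists are described by counts and medians beside those of all tested genes, without a test of the list.

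The 79 genes, the other lists and the tests were chosen with earlier results of these data known. Named were RNF26, DAP3, in each comparison the 8 called genes with the largest and the 8 with the smallest log2 fold change among those with 5 TPM or more in the higher group (the 3 with the smallest p where none was called), the 5 highest and 3 lowest genes, the MRPS18 paralogs, genes with a second role, and up to 4 genes of each other list by smallest p. In HCT15 MRPS27, MRPL45, MRPL32 and NRF1, and in the difference MRPL44 and MRPS18B, were added after their values were seen.

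Alternatives were a pseudocount of 0.1 or 5, no filter or a filter of 5 TPM, median-ratio scaling, quantile normalization, leaving out the mitochondrial genome and cytosolic ribosomal proteins, a correction for GC content and length (spline with 5 degrees of freedom, 95.3% of tested genes), separate fits, empirical Bayes without a trend or robust, the replicate number as a block, and leaving out each library.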

Additional observations from a re-analysis of the deposited data

Results flagged for a closer look

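The log2 fold change between RNF26 and control cells differed between the lines for 14 of the 79 genes. The test was of the difference itself (limma interaction contrast, HCT15 minus HCT116, adjusted over all tested genes). Of the 14, MRPS33, MRPL49, MRPS2 and MRPS27 were called in all 24 settings. The log2 fold change was higher in HCT15 for MRPS36 (0.69), MRPS33 (0.62), MRPL48 (0.43) and MRPL45 (0.25), as differences of log2 fold changes. It was lower in HCT15 for MRPL49 (-0.85), MRPS2 (-0.82), MRPS30 (-0.53), MRPS27 (-0.50), MRPL28 (-0.50), MRPS34 (-0.48), MRPL43 (-0.41), MRPL37 (-0.33), MRPL44 (-0.28) and MRPS18B (-0.26). In HCT116 the log2 fold changes of these 14 genes lay between -0.15 (MRPL37 and MRPL28) and 0.20 (MRPS36). Over all tested genes 20.5% differed between the lines. The RNF26 level itself was 296 TPM in HCT116 RNF26 and 54.2 TPM in HCT15 RNF26 libraries, and the part of that difference was not tested.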

How the results depend on the processing

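In HCT15, genes called higher numbered 33 under median-ratio scaling, 32 under quantile normalization, 27 without the mitochondrial genome and cytosolic ribosomal proteins and 5 in a separate fit, against 10; genes called lower numbered 8, 8, 12 and 13, against 20. Leaving out 1 library gave 6 to 22 higher and 14 to 20 lower genes. Counts over all tested genes moved too: 2242 higher and 2600 lower under median-ratio scaling, 374 and 3528 in the separate fit, against 840 and 4857. The genes' median minus that of all genes (0.198) was 0.0374 without a filter on low values, and 0.0737 (without HCT15 control replicate 3) to 0.251 over single libraries left out. For the difference between lines the higher genes numbered 15, 15 and 11 under those 3 scalings and 2 with the GC and length correction, without a trend and with the replicate block, against 4, and 1 to 14 without 1 library. The lower genes numbered 3, 5 and 6, against 10, and 6 to 15 without 1 library. That median (0.196) was 0.0400 without a filter and 0.124 to 0.265 without 1 library. Between control cells the higher genes numbered 6 under median-ratio scaling, against 10, and 8 to 12 without 1 library, the lower ones 42 to 46. The median (-0.545) was -0.327 without a filter, -0.379 after quantile normalization and -0.569 to -0.460 without 1 library. In HCT116 the count was 0 in both directions in all 25 settings, and the median stayed between -0.0235 and 0.0198 without 1 library. Some single genes called on the deposited TPM or under an alternative had opposite signs in these. Among them were MRPL32 in HCT15 (-0.0151 after the GC and length correction) and MRPS18B between control cells (-0.166 under median-ratio scaling, limma adjusted p = 0.0440). In HCT15, MRPL3 and MRPL19 were called lower on the deposited TPM (-0.207 and -0.203). Under median-ratio scaling they were at 0.0119 and 0.0142 and not called. MRPL1 and MRPL42 were called in both directions in HCT15, as given above. Values of named genes not called on the deposited TPM also crossed 0 over the settings, among them MRPL41, MRPL58 and MRPS18C in HCT15 and DAP3 in HCT116. The causes of these shifts were not tested; without a filter, genes near 0 set the median of all genes.

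Replicate numbers were not taken as pairs. Deviations of same-numbered libraries correlated at -0.031, -0.042 and -0.025 in HCT116 and at 0.009, 0.014 and 0.146 in HCT15. Not every library correlated best with its own number, though the 0.146 of replicates 3 was the highest value in HCT15. With 3 libraries per group these values cannot settle whether the numbers pair the samples. With the replicate block 8 genes were called higher and 15 lower in HCT15, 2 and 8 for the difference, 10 and 44 between control cells and 0 in HCT116. TPM keep no depth, so what low counts limit could not be assessed.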
